A study of Mus musculus with 4 samples.

Results

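The 9 genes described here encode the Fcγ receptors of mouse macrophages (*Fcgr1*, *Fcgr2b*, *Fcgr3* and *Fcgr4*), the neonatal Fc receptor (*Fcgrt*), the adaptors that carry an immunoreceptor tyrosine-based activation motif (ITAM; *Fcer1g* and *Tyrobp*), the receptor *Trem2* and the kinase *Syk*. They were chosen by name, for their place in Fc receptor and ITAM signaling, and were 9 of the 55356 genes in the expression table. RNA was sequenced from 4 libraries of immortalized bone marrow-derived macrophages (BMDMs) from *MK2*-KO mice. All 4 groups lacked endogenous MK2, a protein kinase activated by p38, and all had been transduced with a retroviral vector that also encodes GFP and sorted for GFP. The i*MK2*-KO +*GFP* cells received the empty vector and the i*MK2*-KO +*MK2* cells, called wild type in the sample labels, received *MK2*. They are called +*GFP* and +*MK2* cells below. Both lines were sampled untreated (UT) and after treatment with IL-1α at 5 ng/mL for 1 h. Each condition had 1 library and each genotype was 1 transduced line, so that differences between libraries have no replicate check, no test was run, and the effect of *MK2* cannot be told apart from other differences between the lines.

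Fcγ receptors bind the constant part of IgG and connect antibodies to phagocytes. FcγRI, FcγRIII and FcγRIV, encoded by *Fcgr1*, *Fcgr3* and *Fcgr4*, activate the cell through the FcRγ chain, encoded by *Fcer1g*, whose ITAM is phosphorylated by kinases of the Src family and then bound by Syk. FcγRIIb, encoded by *Fcgr2b*, carries an immunoreceptor tyrosine-based inhibition motif (ITIM) that recruits the phosphatase SHIP-1 and dampens the same signal. DAP12, encoded by *Tyrobp*, is the ITAM adaptor of TREM2 and of several lectin receptors, and FcRn, encoded by *Fcgrt*, protects IgG from degradation and belongs to a different structural family.

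The coding sequences of the ITAMs and of the ITIM of FcγRIIb were read from GENCODE M21 transcripts (GRCm38). The ITAM of FcRγ spans residues 65 to 79 of 86 and lies at chr1:171229889-171230072 on the minus strand, and that of DAP12 spans residues 92 to 106 of 114 and lies at chr7:30415670-30417382 on the plus strand. Both are split between exons. The ITIM of FcγRIIb spans residues 317 to 322 of 340 and lies in 1 exon at chr1:170961071-170961088 on the minus strand. In the coding sequences below, capitals mark the tyrosine and leucine blocks of the ITAMs and the tyrosine codon of the ITIM.
*Fcer1g* ITAM: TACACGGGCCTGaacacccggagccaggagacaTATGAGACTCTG
*Tyrobp* ITAM: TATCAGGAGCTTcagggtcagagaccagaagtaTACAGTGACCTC
*Fcgr2b* ITIM: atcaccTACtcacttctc
The complete ITAM pattern was found in 0 of the other 7 members. The shorter ITIM pattern, searched over the whole coding sequence, also occurred in *Fcgr1* (2 matches) and in *Fcgr4*, *Fcgrt*, *Fcer1g* and *Tyrobp* (1 match each), so that the pattern alone does not set *Fcgr2b* apart. The adaptors therefore differ from the receptors in where the activating signal is encoded, and their transcripts are given separately from those of the receptors.

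Upstream sequences are shown for the 3 Fcγ receptors that were at least 1.5-fold apart between untreated cells of the lines, a choice made from their values. RefSeq promoters (GRCm38.p6, from 250 bases before to 50 bases after the start) matched 8 of the 9 members. The string GAGGAA was taken as a core bound by PU.1, a transcription factor of the macrophage lineage. The string was searched on both strands and occurred in 28.3% of 32851 promoters. It was present in *Fcgr1*, *Fcgr3*, *Fcgr4* and *Trem2* and absent as a string from the windows of *Fcgr2b*, *Fcer1g*, *Fcgrt* and *Syk*. Other forms of the site were not searched, so that a window without this string may still hold a site for PU.1. The promoters of *Fcgr1* (chr3:96293920-96294219), *Fcgr3* (chr1:171059354-171059653) and *Fcgr2b* (chr1:170976022-170976321) are printed 5′ to 3′ on the minus strand. Capitals mark the reverse complement of the core in *Fcgr1* and *Fcgr3*, and that of *Fcgr2b* has no capitals because it holds no match.
*Fcgr1* promoter: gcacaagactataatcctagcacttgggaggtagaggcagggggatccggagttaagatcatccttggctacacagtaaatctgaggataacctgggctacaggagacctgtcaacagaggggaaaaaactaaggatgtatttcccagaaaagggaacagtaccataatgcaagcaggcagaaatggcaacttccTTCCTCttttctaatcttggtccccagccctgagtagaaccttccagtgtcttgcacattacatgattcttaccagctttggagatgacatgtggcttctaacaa
*Fcgr3* promoter: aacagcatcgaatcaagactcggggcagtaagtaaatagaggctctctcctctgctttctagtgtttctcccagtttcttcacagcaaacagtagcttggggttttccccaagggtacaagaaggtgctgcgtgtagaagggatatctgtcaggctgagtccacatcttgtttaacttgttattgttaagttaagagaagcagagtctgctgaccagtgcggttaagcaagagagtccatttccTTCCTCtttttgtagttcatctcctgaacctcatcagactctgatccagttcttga
*Fcgr2b* promoter: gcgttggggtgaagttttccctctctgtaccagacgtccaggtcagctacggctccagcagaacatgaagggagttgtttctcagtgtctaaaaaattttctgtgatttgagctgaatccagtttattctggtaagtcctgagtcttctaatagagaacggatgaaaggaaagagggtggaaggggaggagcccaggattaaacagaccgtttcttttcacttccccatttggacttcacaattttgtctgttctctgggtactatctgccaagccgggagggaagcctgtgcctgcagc
The AP-1 motif TGANTCA (7.81% of promoters) was found in *Trem2*, the interferon-γ activated site TTCNNNGAA (8.30%) in *Fcgr1*, and the κB motif (8.46%) in *Fcgr3* and *Fcgr4*. These matches are descriptions of the letters in the window, and binding was not measured. Whether the letters bear on the differences between the lines was not tested.

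The authors deposited DESeq2 normalized counts rounded to whole numbers, which summed to between 24891906 and 25733071 per library, with 17840 to 18152 genes above 0. The mean over the 4 libraries was at least 10 for 12483 genes, among them all 9 members. A fold change here compares 2 libraries, each value having been raised by a pseudocount of 1, and a gene was counted as higher or lower where it was at least 1.5-fold. The interval beside a log2 ratio is a 95% exact Clopper-Pearson interval that takes the values as reads, and it covers counting error only. *Mapkapk2*, which encodes MK2, was listed at 561 (UT) and 1585 (IL-1α) in +*GFP* cells and at 38357 and 38141 in +*MK2* cells. The 8 macrophage markers all had a mean of at least 10 and summed to between 115402 and 130123 per library, whereas 0 of the 20 markers of B cells, T and NK cells, mast cells, neutrophils and fibroblasts did.

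Per kb of exon, which allows levels to be compared between genes, the adaptors were the most abundant members. *Tyrobp* had a mean of 9445 normalized counts per kb and *Fcer1g* of 8098, followed by *Trem2* at 5066. *Fcgr3* was the most abundant receptor for IgG at 1814 per kb, above *Syk* at 729 and *Fcgr1* at 651. *Fcgr4* followed at 231 and *Fcgr2b* at 213. The place of *Fcgr2b* depends on the length used, since its exons add up to 3810 bases but the transcript read for its coding sequence has 1578, and with that length it was at 514 per kb, above *Fcgr4*. *Fcgrt* was lowest at 35.6 per kb. The adaptors lay at the 98.7th (*Tyrobp*) and 98.6th (*Fcer1g*) percentiles of 12459 genes with an exon length, *Fcgr2b*, with the length of all exons, at the 48.9th and *Fcgrt* at the 19.1st.

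**Figure D1:**
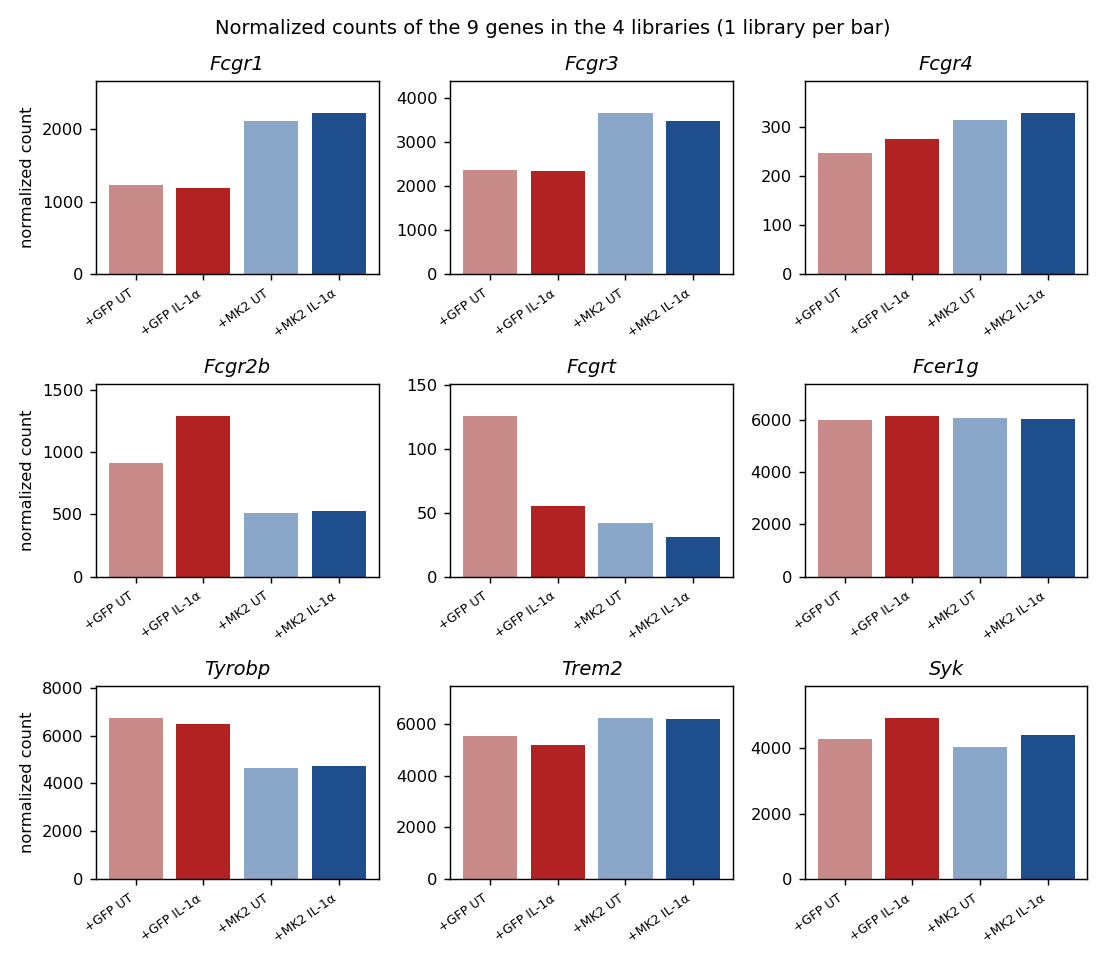
Normalized counts (y axes, each starting at 0) of the 9 genes in the 4 libraries, 1 bar per library. *Fcgr2b* stands at 916 and 1292 in +*GFP* cells against 513 and 526 in +*MK2* cells, *Fcgr1* and *Fcgr3* are lower in both +*GFP* libraries, and *Fcer1g* is level.

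In untreated cells, the activating receptors *Fcgr1* and *Fcgr3* were lower and the inhibitory receptor *Fcgr2b* and *Fcgrt* were higher in +*GFP* than in +*MK2* cells. Of the 9 members, 2 were at least 1.5-fold higher, against 7.33% of all 12483 genes, and 2 were at least 1.5-fold lower, against 10.3%. After IL-1α, 2 members were higher, with 8.41% of all genes higher, and 1 was lower, with 11.2% of all genes lower. The members' median log2 ratio was -0.02 (UT) and 0.03 (IL-1α), and that of all genes was 0.02 and 0.03; members above and below 0 were found in both comparisons. Counting intervals excluded 0 for 8 members in each comparison of the lines, against 57.7% (UT) and 60.0% (IL-1α) of all genes. In RNA from a whole culture, fewer cells expressing a gene and less RNA per cell cannot be told apart.

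*Fcgr1*, on chromosome 3 at 96190225 to 96201285 in the deposited table, encodes the high-affinity receptor for monomeric IgG. It was listed at 1226 (UT) and 1194 (IL-1α) in +*GFP* cells and at 2108 and 2216 in +*MK2* cells. Both +*GFP* libraries were below both +*MK2* libraries. How many of all genes separate the lines in this way is not given here, also for the other members below. The libraries of a line differ in treatment and are not replicates. The difference was 1.72-fold without treatment (log2 ratio -0.78, interval -0.88 to -0.68) and 1.86-fold after IL-1α (-0.89, interval -0.99 to -0.79). This was the receptor with the largest deficit in +*GFP* cells among the 9 members in both comparisons.

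*Fcgr3*, on chromosome 1 at 170878743 to 170892504, encodes a low-affinity activating receptor for immune complexes. Its values were 2366 (UT) and 2334 (IL-1α) in +*GFP* cells and 3655 and 3468 in +*MK2* cells. It was 1.54-fold lower in UT +*GFP* cells (log2 ratio -0.63, interval -0.70 to -0.55). After IL-1α the ratio was -0.57 (interval -0.65 to -0.50), or 1.49-fold, which lies just below the 1.5-fold limit and passes it under each of 3 other scalings of the libraries. *Fcgr4*, on chromosome 1 at 170846489 to 170857330, encodes the activating receptor for IgG2a and IgG2b. It was the least abundant of the activating receptors, at 246 (UT) and 274 (IL-1α) in +*GFP* cells and 314 and 327 in +*MK2* cells. As for *Fcgr1* and *Fcgr3*, both +*GFP* libraries were below both +*MK2* libraries, and the ratio was -0.35 (interval -0.60 to -0.11) without treatment and -0.25 (interval -0.49 to -0.02) after IL-1α, under 1.5-fold in both.

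*Fcgr2b*, on chromosome 1 at 170786186 to 170804116, encodes the inhibitory receptor and went the other way. It was listed at 916 (UT) and 1292 (IL-1α) in +*GFP* cells and at 513 and 526 in +*MK2* cells. The +*GFP* libraries were the higher ones under each treatment, by 1.78-fold without treatment (log2 ratio 0.84, interval 0.68 to 1.00) and by 2.45-fold after IL-1α (1.29, interval 1.15 to 1.45). *Fcgr2b* and *Fcgr3* are related in sequence, and reads from a shared stretch could be credited to either gene. Of 36 pairs of members, this was the only pair that shared any string of 38 bases between transcripts. The shared strings made up 5.52% of those in *Fcgr2b* and 12.4% of those in *Fcgr3*, and for 75 bases these shares were 2.48% and 5.78%. The longest common run was 129 coding bases, at coding bases 278 to 406 of *Fcgr2b* and 263 to 391 of *Fcgr3*. How the reads of this stretch were divided is not given in the sources used here.

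**Figure D2:**
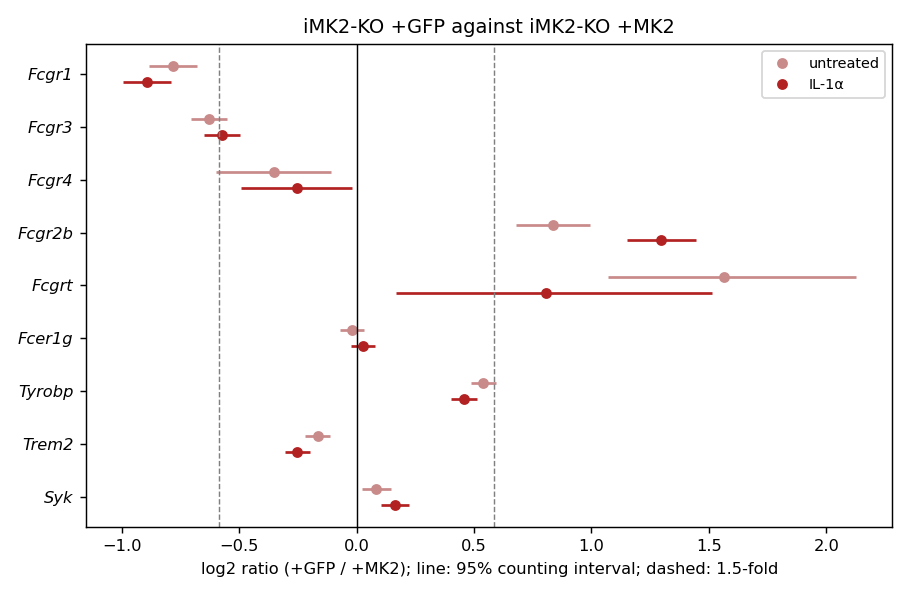
Log2 ratio of +*GFP* to +*MK2* (x axis) for each of the 9 genes, untreated (light points) and after IL-1α (dark points), with 95% counting intervals as lines and 1.5-fold marked by dashed lines. *Fcgr2b* and *Fcgrt* lie to the right of the upper dashed line in both comparisons and *Fcgr1* to the left of the lower one, while *Fcer1g* lies close to 0.

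The balance of activating and inhibitory receptor transcripts within a library also differed between the lines. Per kb of exon, the 3 activating receptors together exceeded *Fcgr2b* by 8.83-fold in UT and 6.23-fold in IL-1α-treated +*GFP* cells. In +*MK2* cells the ratio was 24.6 (UT) and 23.5 (IL-1α). The ratio was thus 2.78-fold lower in +*GFP* cells without treatment and 3.77-fold lower after IL-1α. Each activating receptor taken against *Fcgr2b* showed this order. These ratios share *Fcgr2b*, which was itself 1.78-fold (UT) and 2.45-fold (IL-1α) higher in +*GFP* cells, and are not independent of each other. *Fcgr3* per *Fcgr2b* was 6.04 and 4.23 in +*GFP* cells against 16.7 and 15.4 in +*MK2* cells, and *Fcgr1* per *Fcgr2b* was 1.97 and 1.36 against 6.05 and 6.20. For *Fcgr4* the ratio was 0.815 and 0.643 in +*GFP* cells and 1.86 and 1.89 in +*MK2* cells. The length of 1 transcript per gene was an alternative chosen after seeing the data. With it, the ratio of the 3 receptors to *Fcgr2b* was 4.18 (UT) and 2.95 (IL-1α) in +*GFP* cells against 11.6 and 11.1 in +*MK2* cells. *Fcgr4* per *Fcgr2b* was then 0.337 and 0.266 in +*GFP* cells and 0.769 and 0.781 in +*MK2* cells. The order of *Fcgr4* and *Fcgr2b* in +*MK2* cells thus depends on the length used. For the 3 receptors together, the difference between the lines was 2.78-fold and 3.76-fold with this length. The length of *Fcgr2b* cancels in that difference and those of *Fcgr1* and *Fcgr4* were unchanged, so that only the length of *Fcgr3* could move it. The ratios are taken within a library and do not depend on how the libraries were scaled.

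**Figure D3:**
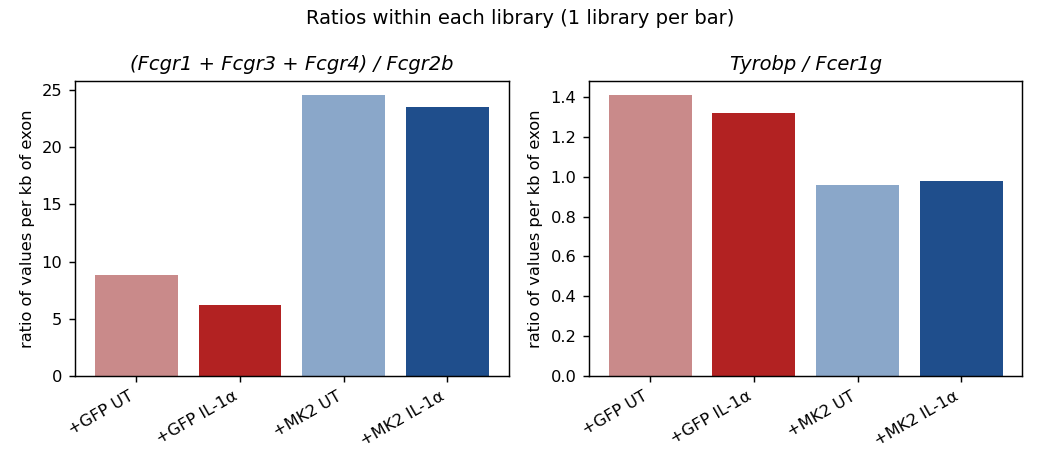
Ratios of values per kb of exon within each library (y axes start at 0), for the 3 activating Fcγ receptors over *Fcgr2b* (left) and for *Tyrobp* over *Fcer1g* (right), 1 bar per library. The left ratio is 8.83 and 6.23 in +*GFP* cells against 24.6 and 23.5 in +*MK2* cells, and the right ratio is 1.41 and 1.32 against 0.957 and 0.979.

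*Fcgrt*, on chromosome 7 at 44742414 to 44753275, was the least abundant member and had the widest range over the 4 libraries, 1.99 on the log2 scale. It was listed at 126 (UT) and 55 (IL-1α) in +*GFP* cells and at 42 and 31 in +*MK2* cells. UT +*GFP* cells stood apart from the other 3 libraries. The difference between the lines was 2.95-fold without treatment (log2 ratio 1.56, interval 1.07 to 2.12) and 1.75-fold after IL-1α (0.81, interval 0.17 to 1.51), on few counts. The 5 genes whose centred log2 values over the 4 libraries were nearest to those of *Fcgrt*, among 9893 genes whose mean reached 100, were *Lars2*, *Zfp268*, *Gm50253*, *9930111J21Rik1* and *Zfp945*. *Lars2*, which encodes mitochondrial leucyl-tRNA synthetase, was the nearest (distance 0.406 on the log2 scale) and was listed at 12021 (UT) and 4232 (IL-1α) in +*GFP* cells and at 2798 and 2753 in +*MK2* cells. *B2m*, which encodes the light chain of FcRn and of MHC class I molecules, was listed at 10400 (UT) and 11315 (IL-1α) in +*GFP* cells and at 9154 and 9351 in +*MK2* cells, under 1.5-fold apart between the lines.

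Of the ITAM adaptors, *Fcer1g* was level and *Tyrobp* was higher in +*GFP* cells. *Fcer1g*, on chromosome 1 at 171057141 to 171061934, is the chain that FcγRI, FcγRIII and FcγRIV need to signal. It was listed at 5980 (UT) and 6155 (IL-1α) in +*GFP* cells and at 6058 and 6037 in +*MK2* cells. A difference between the lines was not detectable beyond counting error, with a log2 ratio of -0.02 (interval -0.07 to 0.03) without treatment and 0.03 (interval -0.02 to 0.08) after IL-1α. *Tyrobp*, on chromosome 7 at 30113185 to 30117010, was listed at 6728 (UT) and 6481 (IL-1α) in +*GFP* cells and at 4627 and 4718 in +*MK2* cells. It was 1.45-fold higher without treatment (log2 ratio 0.54, interval 0.49 to 0.59) and 1.37-fold higher after IL-1α (0.46, interval 0.40 to 0.51). Both differences were below the 1.5-fold limit. *Tyrobp* per *Fcer1g*, per kb of exon, was 1.41 and 1.32 in +*GFP* cells against 0.957 and 0.979 in +*MK2* cells. The ratio was thus higher in +*GFP* cells, while in +*MK2* cells the adaptors were close to level. Their order there depends on small differences and on the lengths used. With the length of 1 transcript per gene the ratio was 1.34 and 1.26 against 0.913 and 0.934.

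*Trem2*, on chromosome 17 at 48653429 to 48661175, encodes a lipid receptor that signals through DAP12. Its values were 5549 (UT) and 5197 (IL-1α) in +*GFP* cells and 6224 and 6192 in +*MK2* cells. The receptor was thus slightly lower where its adaptor was higher, by a log2 ratio of -0.17 (interval -0.22 to -0.11) without treatment and -0.25 (interval -0.31 to -0.20) after IL-1α. *Trem2* per *Tyrobp*, per kb of exon, was 0.431 and 0.419 in +*GFP* cells against 0.703 and 0.685 in +*MK2* cells. *Syk*, on chromosome 13 at 52737209 to 52802828, encodes the kinase that both adaptors recruit. It was listed at 4265 (UT) and 4902 (IL-1α) in +*GFP* cells and at 4023 and 4375 in +*MK2* cells. The lines differed by 0.08 (interval 0.02 to 0.15) and 0.16 (interval 0.10 to 0.22) on the log2 scale, the smallest difference after that of *Fcer1g*.

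Past 1.5-fold after 1 h of IL-1α were 1 member in +*GFP* cells and 0 in +*MK2* cells. With 9 genes, such counts cannot be set apart from the shares of all genes. In +*GFP* cells 0 of 9 were at least 1.5-fold higher, against 4.70% of all genes, and 1 was lower, against 4.29%. In +*MK2* cells 0 were higher, against 2.72%, and 0 were lower, against 2.92%. Counting intervals excluded 0 for 5 members in +*GFP* cells, against 32.3% of all genes, and for 2 in +*MK2* cells, against 19.6%. Most members are abundant, which narrows their intervals. The member that was lower was *Fcgrt*, with a log2 ratio of -1.18 (interval -1.68 to -0.73) in +*GFP* cells and -0.43 (interval -1.16 to 0.27) in +*MK2* cells. The difference between these responses was -0.76 with an interval of -1.57 to 0.05. The comparisons of the lines and the responses use the same 4 libraries and are not independent of each other.

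*Fcgr2b* had the highest ratio of IL-1α-treated to UT cells among the members in +*GFP* cells, at 1.41-fold (log2 ratio 0.50, interval 0.37 to 0.62). In +*MK2* cells the ratio was 0.04 (interval -0.14 to 0.21). The responses differed by 0.46 on the log2 scale (interval 0.25 to 0.67), and this interval covers counting error but not variation between cultures. *Syk* was 1.15-fold higher after IL-1α in +*GFP* cells (log2 ratio 0.20, interval 0.14 to 0.26) and 1.09-fold higher in +*MK2* cells (0.12, interval 0.06 to 0.18). For *Fcgr1* the ratio was -0.04 and 0.07, for *Fcgr3* -0.02 and -0.08, and for *Fcgr4* 0.15 and 0.06, in the same order of the lines. *Trem2* had ratios of -0.09 and -0.01, *Tyrobp* of -0.05 and 0.03, and *Fcer1g* of 0.04 and -0.01.

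**Figure D4:**
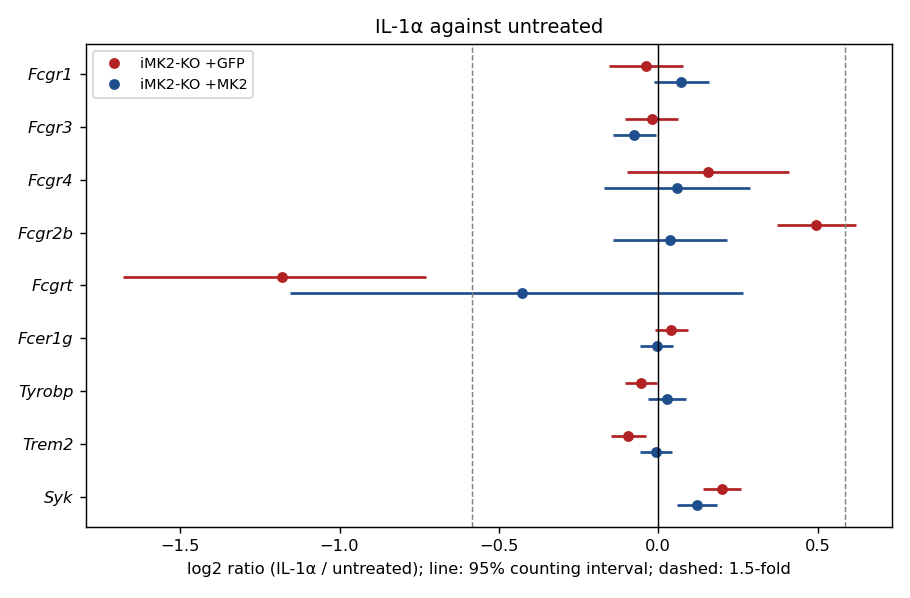
Log2 ratio of IL-1α-treated to untreated cells (x axis) for each of the 9 genes in +*GFP* (red) and +*MK2* cells (blue), with 95% counting intervals as lines and 1.5-fold marked by dashed lines. *Fcgrt* at -1.18 in +*GFP* cells is the only point beyond a dashed line, and *Fcgr2b* at 0.50 in the same cells is the highest.

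The genes for *Fcgr2b*, *Fcgr3*, *Fcgr4* and *Fcer1g* lie together on chromosome 1. Within 250 kb of them, 20 other genes had a mean of at least 10. In UT cells 18 of these 20 had a log2 ratio below 0, against 46.5% of all genes, with a median of -0.26 and a range of -1.49 to 0.12. After IL-1α 18 were below 0, against 45.5% of all genes, with a median of -0.27 and a range of -0.81 to 0.26. At least 1.5-fold lower were 2 of the 20 in UT cells (10.3% of all genes) and 3 after IL-1α (11.2%), and 0 were higher in either comparison. *Fcgr2b* at 0.84 and 1.29 lay above the highest of these neighbours in each comparison. *Fcgr3* at -0.63 and -0.57 and *Fcgr4* at -0.35 and -0.25 lay within the range of these neighbours in each comparison. The value of *Fcgr4* was close to their median. In UT cells the neighbours below *Fcgr3* were *Gm26620* (13 in +*GFP* against 29 in +*MK2* cells) and *Adamts4* (4 against 13), on few counts. After IL-1α the neighbours below *Fcgr3* were *Gm26620* (14 against 24), *Apoa2* (11 against 20) and *Gm20045* (97 against 155). *Fcer1g* was level within the same region.

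Among 8 macrophage markers, those that were at least 1.5-fold apart between the lines were not uniform in direction. *Adgre1*, which encodes F4/80, was listed at 3978 (UT) and 4140 (IL-1α) in +*GFP* cells and at 6832 and 6330 in +*MK2* cells. *Mertk*, which encodes a receptor for the uptake of apoptotic cells, was listed at 421 and 364 against 1093 and 1168. *Cd14*, which encodes a coreceptor for lipopolysaccharide, was higher in +*GFP* cells, at 3652 and 8072 against 1962 and 2250. *Fcgr1* and *Fcgr3* were lower in the same libraries as *Adgre1* and *Mertk*, and the part of these markers in the result was not tested.

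The list of other receptors that signal through ITAM adaptors or a related motif held more genes that were higher than genes that were lower in +*GFP* cells. Of 15 such genes 12 had a mean of at least 10, and 6 of these were higher and 1 was lower in UT cells (median log2 ratio 0.63), against the 7.33% and 10.3% of all genes given above. After IL-1α 6 were higher and 2 were lower (median 0.48). The 6 higher genes were *Trem1*, *Trem3*, *Clec4e*, *Clec4n*, *Clec5a* and *Cd300ld* in both comparisons, and this list was drawn up with earlier results of these data known. *Trem1*, which encodes an amplifier of inflammatory signals that pairs with DAP12, was listed at 162 (UT) and 223 (IL-1α) in +*GFP* cells and at 26 and 18 in +*MK2* cells. *Trem3* was listed at 278 and 289 against 42 and 53. *Clec5a*, which encodes a lectin receptor that uses DAP12, was listed at 2557 and 3097 against 1443 and 1494, in the same direction as *Tyrobp*.

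*Clec4e*, which encodes Mincle, a receptor for mycobacterial glycolipids that uses FcRγ, had the largest response to IL-1α of these genes. It was listed at 2965 (UT) and 13917 (IL-1α) in +*GFP* cells and at 852 and 956 in +*MK2* cells. *Clec4n*, which encodes Dectin-2, another partner of FcRγ, was listed at 189 and 184 against 89 and 115. *Clec7a*, which encodes Dectin-1, a β-glucan receptor with its own hemITAM, was the lower gene at 1402 and 1371 against 2226 and 2209. *Clec1b*, named after its values were seen, was the other lower gene after IL-1α, at 11 against 18, with a counting interval of -1.94 to 0.45 that included 0. Within the lines, *Clec4e* was the gene at least 1.5-fold higher after IL-1α in +*GFP* cells and *Cd300lb*, at 2096 (UT) and 1085 (IL-1α), the lower one, and 0 of 12 were past 1.5-fold in +*MK2* cells.

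Few of the kinases, adaptors and effectors downstream of ITAMs were past 1.5-fold between the lines. Of 33 genes counted here 31 had a mean of at least 10, and in UT cells 0 were higher and 2 were lower, with a median log2 ratio of -0.05, shares that are not above the 7.33% and 10.3% of all genes. The lower genes were *Vav2*, a guanine nucleotide exchange factor, at 693 (UT) and 696 (IL-1α) in +*GFP* cells against 1191 and 1066 in +*MK2* cells, and *Src*, named after its values were seen, at 12 and 14 against 28 and 35. *Lyn*, a Src family kinase, was listed at 2887 and 2956 against 2633 and 2618, and *Fgr*, of the same family, did not exceed 9 in any library. *Plcg2*, a phospholipase downstream of Syk, was listed at 7954 and 8210 against 6132 and 6327, and *Card9*, an adaptor between Syk and NF-κB, at 1483 and 1392 against 1767 and 1776, both under 1.5-fold.

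After IL-1α, 2 of these downstream genes were higher and 3 were lower in +*GFP* cells (median -0.06), beside 8.41% and 11.2% of all genes. *Lcp2*, which encodes the adaptor SLP-76, was listed at 1061 (UT) and 2089 (IL-1α) in +*GFP* cells and at 1298 and 1329 in +*MK2* cells. *Malt1*, which encodes a partner of CARD9 and BCL10, was listed at 1526 and 2765 against 1109 and 1201. These 2 genes were the higher ones. The lower ones were *Vav2*, *Src* and *Lat*, the last named after its values were seen and listed at 39 and 20 against 56 and 51. In the response to IL-1α 2 of 31 were higher and 1 was lower in +*GFP* cells, and 0 were past 1.5-fold in +*MK2* cells.

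The inhibitory side of the pathway held genes that were higher and genes that were lower in +*GFP* cells. Of 25 listed ITIM receptors, phosphatases and other inhibitors, 22 had a mean of at least 10, and in UT cells 6 were higher and 1 was lower (median log2 ratio 0.13), beside 7.33% and 10.3% of all genes. After IL-1α 6 were higher and 3 were lower (median 0.20), beside 8.41% and 11.2%. The higher ones were *Pirb*, *Lilrb4a*, *Ceacam1*, *Cd33*, *Pilra* and *Cd72* in both comparisons, of which *Pilra* was named after its values were seen. *Cd33*, which encodes a lectin that binds sialic acid, was listed at 3001 (UT) and 3117 (IL-1α) in +*GFP* cells and at 1669 and 1785 in +*MK2* cells. *Lilrb4a*, which encodes an ITIM receptor, was listed at 9005 and 24371 against 4970 and 5350. *Pirb*, *Lilrb4a* and *Pilra* belong to families of closely similar genes, and how reads were divided among their copies is not given in the sources used here.

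*Cblb*, which encodes a ubiquitin ligase that limits Syk signaling, was the lower inhibitor in UT cells, at 599 (UT) and 614 (IL-1α) in +*GFP* cells against 1342 and 1389 in +*MK2* cells. *Clec4a2* and *Cd200r1* joined it after IL-1α, at 51 against 150 and at 407 against 757. The phosphatases that act on the ITAM and ITIM pathways were under 1.5-fold apart. *Inpp5d*, which encodes SHIP-1, the partner of FcγRIIb, was listed at 4830 and 4832 against 5075 and 5186, and *Ptpn6*, which encodes SHP-1, at 6467 and 6803 against 5659 and 5113. In the response to IL-1α 2 of 22 were higher (*Lilrb4a* and *Pilra*) and 1 lower (*Clec4a2*) in +*GFP* cells. In +*MK2* cells 1 was higher, *Pilra*, at 11 (UT) and 17 (IL-1α), and 0 were lower. The counting interval of this *Pilra* ratio, -0.55 to 1.87, included 0.

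**Figure D5:**
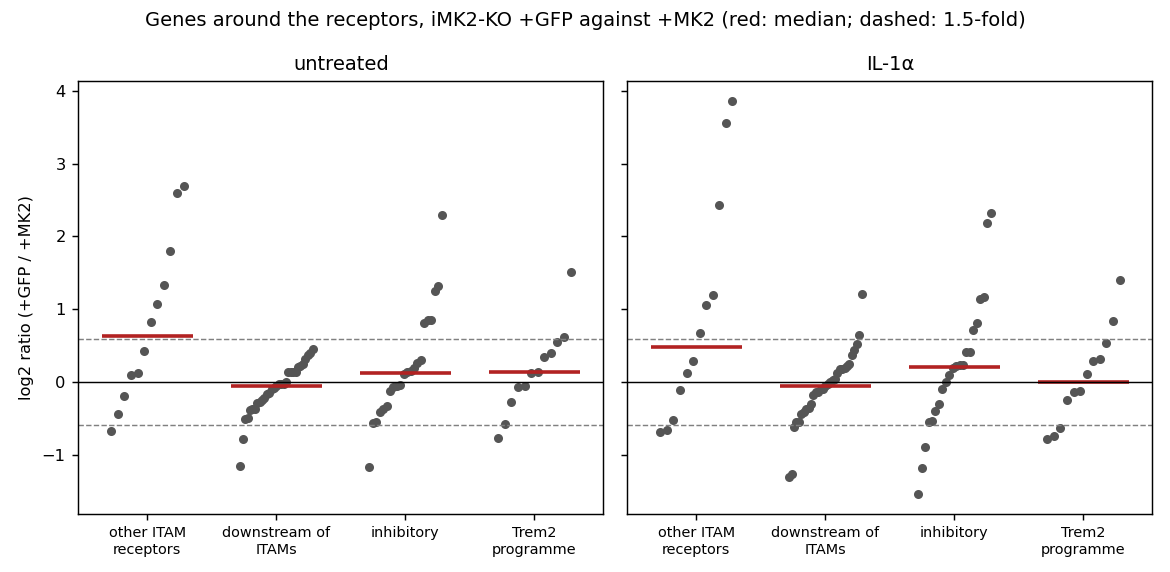
Log2 ratio of +*GFP* to +*MK2* (y axis) of the listed genes with a mean of at least 10, untreated (left) and after IL-1α (right), 1 point per gene, with the median of each list in red and 1.5-fold dashed. The other ITAM receptors have medians of 0.63 and 0.48, and the genes downstream of ITAMs have medians of -0.05 and -0.06.

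A further list held the Trem2 sheddases *Adam10* and *Adam17* and genes of the Trem2-dependent programme described in microglia. Of 14 listed genes 12 had a mean of at least 10, and 2 were higher and 1 was lower in UT cells (median log2 ratio 0.14), beside 7.33% and 10.3% of all genes. After IL-1α 2 were higher and 3 were lower, beside 8.41% and 11.2%. *Cst7* and *Itgax*, the latter named after its values were seen, were the higher ones without treatment, and *Adam17* and *Itgax* after IL-1α. *Spp1*, which encodes osteopontin, was lower in both comparisons, at 126492 (UT) and 130858 (IL-1α) in +*GFP* cells against 214552 and 219598 in +*MK2* cells. *Ctsd*, which encodes the protease cathepsin D, and *Apoe* were lower after IL-1α, at 57340 against 88936 and at 88 against 152. *Adam17*, which encodes a protease that can shed TREM2, was listed at 3141 (UT) and 4326 (IL-1α) in +*GFP* cells and at 2138 and 2409 in +*MK2* cells. After IL-1α, 0 of these 12 genes were past 1.5-fold in either line. Of 8 other Fc receptors and Fc-binding genes, *B2m* and *Trim21*, which encodes a cytosolic Fc receptor, had a mean of at least 10, and *Trim21*, named after its values were seen, was listed at 162 and 130 against 128 and 138.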

How the data were processed

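RNA was sequenced by the authors in 4 libraries, 1 per condition. Per the labels, polyadenylated RNA and paired reads of 38 bases were used, whereas the methods describe ribo-depletion and single reads of 75 bases. The authors deposited 1 score per gene and library, DESeq2 normalized counts rounded to whole numbers. The submitters' processing notes name DESeq2 and GRCm38, and versions are not given in the sources used here. The strand setting of the counting is likewise not given. Only 1494 of 52080 genes matched by ID had the same start and end as in GENCODE M21 (GRCm38), so that the build of the table's positions is unknown and they are given as deposited. Sequences and exon lengths (of protein-coding transcripts) came from GENCODE M21 (GRCm38), promoters from RefSeq (GRCm38.p6).

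The ratios were computed from the values as deposited, without a count model, since these are not read counts. The intervals nevertheless treated the values as reads. Libraries were assigned to groups from the sample labels. Log2 ratios with a pseudocount of 1 were computed for all genes, and calls required a mean of at least 10 and at least 1.5-fold. Intervals for a ratio were exact Clopper-Pearson intervals at 95%, and those for a difference between responses were normal intervals under Poisson counting. A count of 0 would allow up to 3 counts. The members, gene lists and comparisons were chosen with earlier results of these data known. All 9 members are named. From each of 5 lists up to 6 genes per comparison with the largest ratio, a mean of at least 50 and at least 1.5-fold apart could be named, others are marked as named after their values were seen, and *B2m*, *Lyn*, *Fgr*, *Plcg2*, *Ptpn6*, *Inpp5d* and *Card9* were named in any case. One gene of the list downstream of ITAMs is not reported here, and the counts, median and plot of that list leave it out. Other scalings (TMM, library totals, *Gapdh*), pseudocounts, minimum means, a 2-fold limit, other read numbers and other gene lengths were tried. Steps were run in Python 3.11.15 with NumPy 2.4.6, pandas 2.3.3 and SciPy 1.17.1, and were tested on simulated data.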

Additional observations from a re-analysis of the deposited data

Results flagged for a closer look

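Among 41 genes examined for responses to IL-1α of opposite direction in the lines, with each counting interval clear of 0, 1 gene was found and 0 members were. The share of all genes that would meet this rule is not given here. *Ptpn6*, which encodes the phosphatase SHP-1, had a log2 ratio of 0.073 (interval 0.024 to 0.122) in +*GFP* cells and of -0.146 in +*MK2* cells. Scaling to library totals or to *Gapdh* moved the median response of all genes in +*GFP* cells by -0.042 and -0.044. These shifts are larger than the lower end of that interval but smaller than the ratio of 0.073. The direction in +*GFP* cells thus stays, but whether its interval is clear of 0 depends on the scaling. The difference was not tested, since each condition had 1 library.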

How the results depend on the processing

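No paired analysis was possible because each condition had 1 library, and leaving out a library was not possible for the same reason. Of the values and counts that answer a comparison, 102 recomputed under the alternatives stayed close to the reported ones, 15 moved, and 0 that were past 1.5-fold changed direction. The members lower in +*GFP* cells after IL-1α numbered 2 instead of 1 with TMM scaling, scaling to library totals and scaling to *Gapdh*, since *Fcgr3* then passed 1.5-fold. With scaling to *Gapdh*, the members' median ratio was -0.077 without treatment and -0.074 after IL-1α, and that after IL-1α was below 0 under all 3 scalings (-0.002 with TMM, -0.008 with library totals), against the reported 0.03. *Fcer1g* is the member at this median. Scaling to *Gapdh* moved the median of all genes by up to -0.10. With a 2-fold limit, 1 member was higher and 0 were lower in each comparison of the lines, and 0 instead of 1 had a response to IL-1α that was lower by that much in +*GFP* cells than in +*MK2* cells. With the values taken as fewer reads (0.5 per count), the interval excluded 0 for 1 instead of 2 members in the response of +*MK2* cells. With the length of 1 transcript per gene, chosen after seeing the data, the ratio of activating receptors to *Fcgr2b* was 4.18 and 2.95 in +*GFP* and 11.6 and 11.1 in +*MK2* cells. Of the other values, 269 stayed close and 40 moved. Without a minimum mean, 13.2 to 19.9% of genes were past 1.5-fold in each direction. With a minimum mean of 50, the shares in the responses to IL-1α fell. They were then 2.89% higher and 1.56% lower in +*GFP* cells and 0.77% higher and 0.81% lower in +*MK2* cells. Intervals cover counting error only, and *Fcgrt*, with at most 126 counts, is the member that depth limits most.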
